A study of Homo sapiens with 12 samples.

Results

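RNA levels of 10 genes of the YAP/TEAD transcription system were examined in PEO1 and COV362, both long-established cell lines grown from human ovarian carcinoma of the high-grade serous type, with and without the drug prexasertib. The genes were taken by symbol as a fixed set: the coactivators YAP1 and WWTR1 (also named TAZ), the DNA-binding factors TEAD1 and TEAD4, and the target genes CYR61, CTGF, ANKRD1, AMOTL2, LATS2 and AXL. All 10 were found among the 26485 genes of the deposited count table, and all 10 were among the 14498 genes with enough counts to be tested. The groups were PEO1 given prexasertib at 20 nM, PEO1 given the DMSO vehicle, COV362 given prexasertib at 20 nM and COV362 given DMSO. Each group had 3 libraries, lettered A, B and C. Prexasertib inhibits the checkpoint kinases CHK1 and CHK2, which restrain the cell cycle when DNA is damaged or replication stalls. The labels call both lines parental, and all groups grew in the same serum-supplemented medium with insulin. How long the cells were treated is not stated. Separate cultures for the 3 libraries of a group are not stated either, so p-values measure the spread between these libraries, which may be technical. Each line is a single tumour-derived line, so a difference between PEO1 and COV362 describes these lines and no wider class.

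YAP1 and WWTR1 do not bind DNA themselves. They enter the nucleus and bind TEAD factors, which sit at enhancers and promoters of target genes, and the complex raises transcription of growth, matrix and cytoskeletal genes. The Hippo kinase cascade, in which STK3 and STK4 activate LATS1 and LATS2, phosphorylates YAP1 and WWTR1 and holds them in the cytoplasm. The protein NF2 (merlin) stimulates that cascade at the membrane. Some targets, among them LATS2 and AMOTL2, encode inhibitors of YAP and thereby close a feedback loop. YAP1 is known in ovarian carcinoma as a growth-promoting factor. Counts of RNA measure transcript levels, and neither phosphorylation nor nuclear location of the proteins was measured.

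TEAD factors recognise the sequence GGAATG, which reads CATTCC on the other strand. RefSeq promoter windows of build GRCh38.p14, each 300 bases long with 250 bases before and 50 after an annotated transcription start, were at hand for 7 of the 10 genes. CYR61, TEAD1 and TEAD4 had none. The CTGF, ANKRD1, AMOTL2 and AXL stretches below are the 250 bases before the start, shown because CTGF and ANKRD1 gave the largest rises of the set, AXL fell, and AMOTL2 was not called under the drug. The LATS2 line is a site of 30 bases around its match, which lies just after the start. Sequences are written 5′ to 3′ on the strand of the gene, and capitals mark each TEAD motif.
CTGF, chr6:131951373-131951622, minus strand: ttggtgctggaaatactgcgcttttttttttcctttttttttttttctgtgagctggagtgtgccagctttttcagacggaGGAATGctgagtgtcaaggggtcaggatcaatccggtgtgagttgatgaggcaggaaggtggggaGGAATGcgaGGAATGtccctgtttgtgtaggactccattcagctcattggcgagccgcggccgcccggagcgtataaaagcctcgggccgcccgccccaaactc
ANKRD1, chr10:90921088-90921337, minus strand: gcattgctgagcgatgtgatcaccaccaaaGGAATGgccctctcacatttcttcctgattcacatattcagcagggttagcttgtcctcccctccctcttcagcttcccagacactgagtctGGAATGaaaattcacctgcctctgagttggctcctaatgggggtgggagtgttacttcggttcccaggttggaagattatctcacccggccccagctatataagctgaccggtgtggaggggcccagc
LATS2, chr13:21061560-21061589, minus strand: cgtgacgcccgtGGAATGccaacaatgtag
AMOTL2, inner start, chr3:134374448-134374697, minus strand: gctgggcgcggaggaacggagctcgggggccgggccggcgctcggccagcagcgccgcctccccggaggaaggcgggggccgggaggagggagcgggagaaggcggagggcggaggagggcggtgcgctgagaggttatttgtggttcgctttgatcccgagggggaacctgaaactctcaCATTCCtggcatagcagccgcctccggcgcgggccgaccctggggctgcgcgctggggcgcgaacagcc
AXL, outer start, chr19:41218973-41219222, plus strand: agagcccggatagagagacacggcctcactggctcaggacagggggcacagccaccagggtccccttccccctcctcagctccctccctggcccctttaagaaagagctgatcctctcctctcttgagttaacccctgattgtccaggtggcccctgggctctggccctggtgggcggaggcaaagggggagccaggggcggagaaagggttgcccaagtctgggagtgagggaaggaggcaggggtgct

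The CTGF window held 3 TEAD motifs, beginning 169, 104 and 95 bases before the start. ANKRD1 had 2, at 220 and 128 bases before its start, and LATS2 had 1 beginning at base 10 of the transcript. In YAP1 a single motif began 162 bases before the start. AMOTL2 had 1 on the opposite strand at its inner start and none at its outer start, and AXL had none at its outer start and 1 on the opposite strand at its inner one, 212 bases before it. The 2 WWTR1 windows had no match. Over all 35116 RefSeq windows of this length, 14.0% held at least 1 TEAD motif, 1.37% at least 2 and 0.128% at least 3. The longer form GGAATGT, whose reverse complement is ACATTCC, was present in 3.46% of windows, and among the members in those of YAP1, CTGF and AMOTL2. A loose pattern for AP-1 factors, TGANTCA, where N is any base, overlapped no TEAD motif in these windows. It matched 195 bases before the ANKRD1 start, where the bases read TGATTCA. That stretch does not itself read the same on both strands. The pattern was present in 7.71% of all windows. These matches describe letters in short windows, and binding was not measured.

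**Figure D1:**
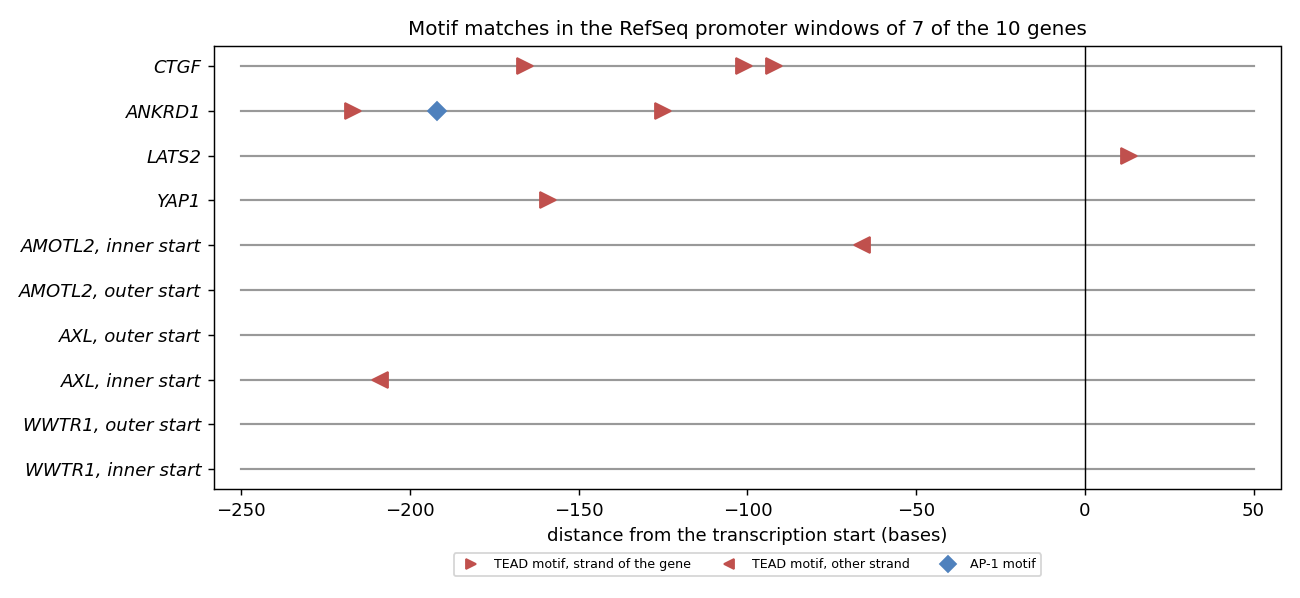
Motif matches in the 10 RefSeq promoter windows of 7 of the genes, by distance from the transcription start in bases (x axis), 1 line per window. Red arrowheads are TEAD motifs, pointing right on the strand of the gene and left on the other. The blue diamond is the match to the AP-1 pattern TGANTCA, where N is any base. CTGF carries 3 TEAD motifs and ANKRD1 carries 2.

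Library totals were 15541151 to 18260493 counts in PEO1 and 9390790 to 18262805 in COV362, where the lowest was DMSO library A. Within a group, log2 CPM (counts scaled to library size with TMM factors, the trimmed mean of M-values) correlated at 0.959 to 0.989 between libraries. Of 13 serous carcinoma markers, 9 reached 1 CPM in PEO1 with prexasertib and 10 in PEO1 with DMSO, and 12 did so in both COV362 groups. SOX17 had 0 counts in all PEO1 libraries, and FOLR1 was near 0 there. Summed CPM of these markers ran from 3558 to 4173 in PEO1 with prexasertib and from 6724 to 7835 in PEO1 with DMSO. With prexasertib the PEO1 means of PAX8, WT1, KRT7, KRT8, KRT18, ESR1, CLDN3 and CLDN4 were lower. Those of EPCAM (449 against 418 CPM) and MUC16 (5.33 against 4.87 CPM) were higher. MECOM, like SOX17 and FOLR1, stayed under 1 CPM in PEO1. Of the 13 markers, 5 were called lower in treated PEO1 cells and none higher, beside 14.6% of all tested genes lower and 14.7% higher. In COV362 the sums were 2436 to 3630 with prexasertib and 2474 to 2983 with DMSO. Fibroblast markers summed to at most 10.2 CPM in every library. Of 5 endothelial markers 4 reached 1 CPM in COV362, with sums of 55.0 to 56.0 CPM under prexasertib and 80.8 to 96.5 CPM under DMSO. CDH5 made up most of these sums, with means of 45.2 CPM under prexasertib and 73.9 CPM under DMSO. Each library came from 1 cell line. Fewer cells that express a gene and less of its RNA per cell cannot be told apart in bulk RNA.

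Levels of different genes were compared per length, as TMM-scaled reads per kilobase of exon (RPKM). In PEO1 with prexasertib, CYR61 was the highest of the 10 at 216 ± 40.2 RPKM (SD, n = 3 here and below), followed by CTGF at 53.1 ± 10.6 and ANKRD1 at 51.9 ± 3.23 RPKM. TEAD4 followed at 35.8 ± 4.98 RPKM, above AMOTL2 at 30.7 ± 3.30 RPKM by more than the SD of either. AMOTL2, YAP1 and AXL lay between 29.3 and 30.7 RPKM, neighbours in the order lying within each other's SD, and LATS2 was lowest at 8.86 ± 0.542 RPKM. In PEO1 with DMSO, CYR61 was again highest at 125 ± 10.6 RPKM, while ANKRD1 was lowest at 3.83 ± 0.443 RPKM, under LATS2 at 5.95 ± 0.928 RPKM. COV362 had another order. ANKRD1 led there, with 339 ± 43.7 RPKM under prexasertib and 393 ± 25.3 RPKM under DMSO, ahead of CYR61 with 183 ± 5.76 and 175 ± 31.9 RPKM and of AXL with 76.8 ± 2.62 and 82.1 ± 4.30 RPKM. LATS2 was last in COV362, at 5.62 ± 0.564 RPKM with prexasertib and 5.52 ± 0.795 RPKM with DMSO. TEAD4 exceeded TEAD1 per length in each group, by means of 35.8 against 18.2 RPKM in treated PEO1 and of 56.5 against 8.14 RPKM in treated COV362. YAP1 likewise exceeded WWTR1, with 30.7 against 13.5 RPKM in treated PEO1 and 21.1 against 15.6 RPKM in treated COV362.

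**Figure D2:**
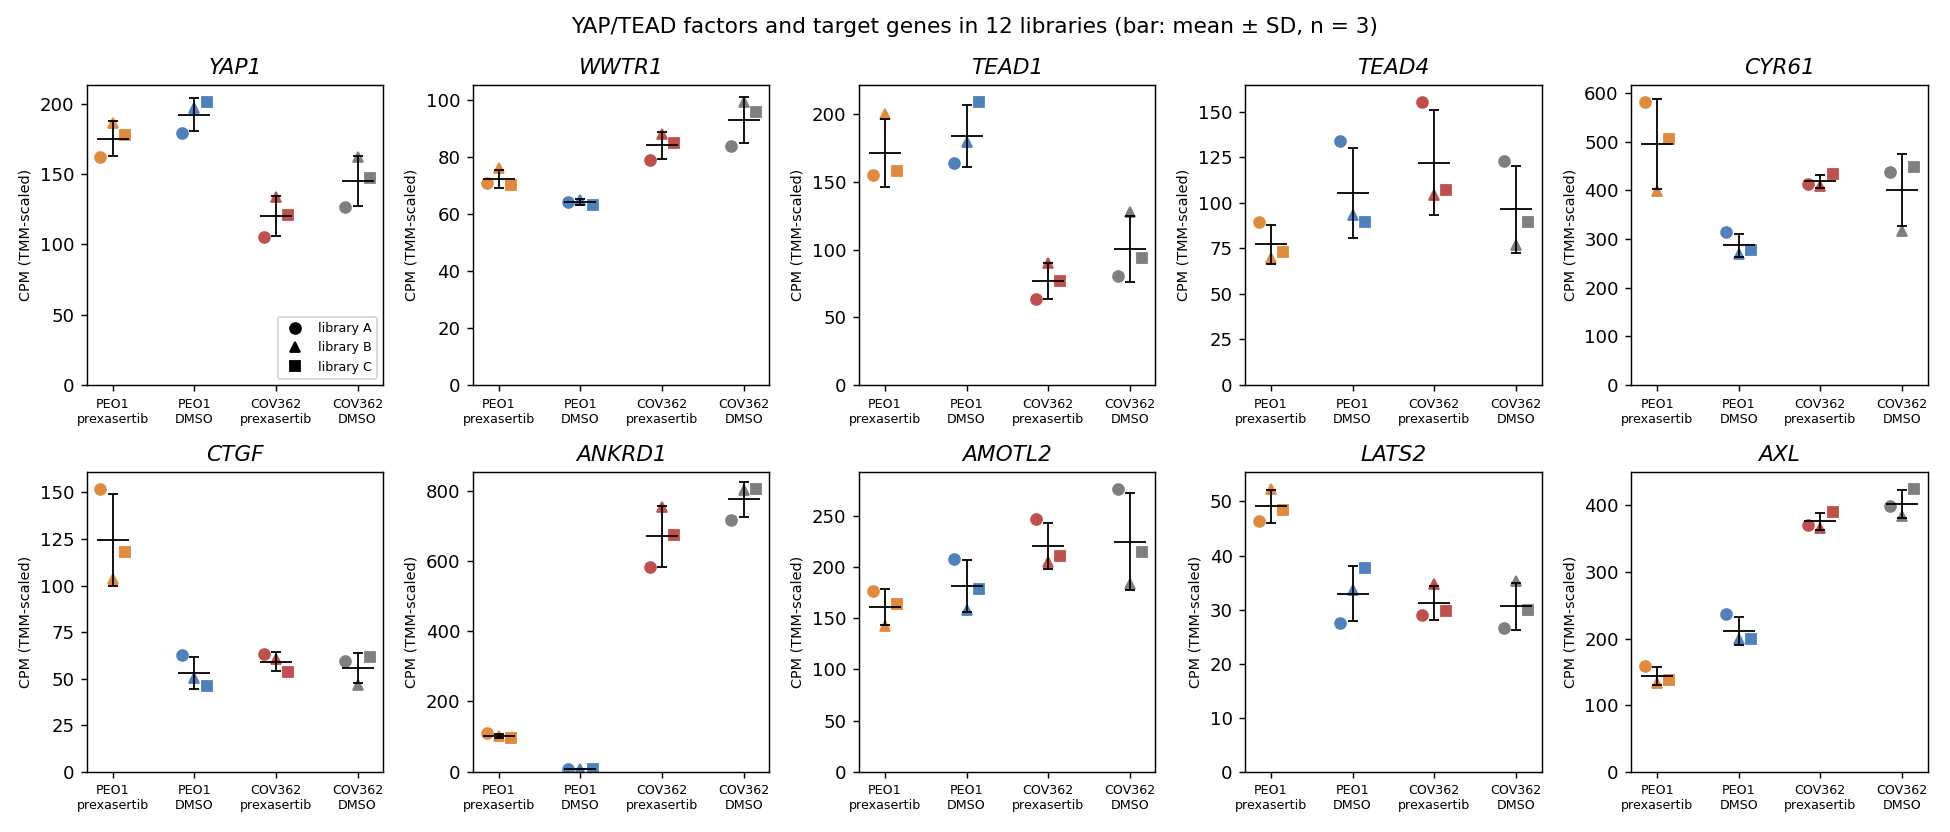
Scaled CPM (y axis, linear from 0) of each of the 10 genes in 12 libraries, by line and treatment (x axis). Circles, triangles and squares are libraries A, B and C, and bars give the mean ± SD over 3 libraries. The treated PEO1 libraries lie above the PEO1 DMSO libraries for CYR61, CTGF, ANKRD1 and LATS2 and below them for AXL. They also lie above for WWTR1, which was not called. ANKRD1 is far higher in COV362 than in PEO1.

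The first question was which of these genes changed in PEO1 cells under prexasertib. The classical targets ANKRD1, CTGF and CYR61 rose, LATS2 rose to a smaller extent, and AXL fell. No change passed the test for YAP1, WWTR1, TEAD1, TEAD4 or AMOTL2 in the fit of 4 group means. Thus 5 of the 10 genes were called at an adjusted p under 0.05, against 29.3% of all tested genes in this comparison. Among the members 4 were higher, against 14.7% of all genes, and 1 was lower, against 14.6%. Their median log2 fold change was 0.03, beside 0.0089 over all tested genes. Overlap of libraries is given below gene by gene. It was not counted over all tested genes, so it does not set the members apart.

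ANKRD1 encodes an ankyrin repeat protein of nucleus and sarcomere that is switched on in stressed or stretched muscle, and is a standard readout of YAP. It lies on chromosome 10 (90912100 to 90921275, minus strand, hg38). It had 109, 102 and 96.4 CPM in the treated PEO1 libraries A, B and C, against 8.03, 8.09 and 6.54 CPM in the DMSO libraries, from 1858, 1856 and 1597 counts against 123, 149 and 119. The groups are far apart, and each group is narrow. The rise was 13.6-fold, a log2 fold change of 3.76 ± 0.15 (SE, edgeR, adjusted p = 5.81e-09).

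CTGF, also named CCN2, encodes a secreted matrix-associated protein of the CCN family (chromosome 6, 131948177 to 131951378, minus strand). Its level was 152, 104 and 118 CPM in treated PEO1 libraries and 62.8, 50.3 and 46.1 CPM in DMSO libraries. The lowest treated library was thus well above the highest DMSO one. The change was 2.35-fold, or 1.23 ± 0.17 on the log2 scale (edgeR, adjusted p = 0.000218). CYR61, or CCN1, encodes another secreted CCN protein that binds integrins (chromosome 1, 85580761 to 85583965, plus strand). It had 582, 398 and 505 CPM in treated PEO1 libraries, against 314, 269 and 278 CPM in DMSO libraries, again without overlap. Its rise was 1.73-fold, 0.79 ± 0.16 on the log2 scale (edgeR, adjusted p = 0.00255). For both CCN genes library A was the highest of its group in treated and in DMSO-treated PEO1 cells.

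LATS2, the kinase that inhibits YAP and is also a YAP target (chromosome 13, 20973036 to 21061583, minus strand), had 46.4, 52.4 and 48.5 CPM in treated PEO1 libraries and 27.5, 33.6 and 37.8 CPM in DMSO libraries. The groups did not overlap. LATS2 rose 1.49-fold, 0.57 ± 0.15 on the log2 scale (edgeR, adjusted p = 0.0135). That call was lost without treated library B (adjusted p = 0.0813), treated library C (0.0549), DMSO library A (0.105) or DMSO library B (0.0586), with log2 changes of 0.41 to 0.63 over the alternatives run. AXL, a receptor tyrosine kinase of cell survival and invasion (chromosome 19, 41219199 to 41261767, plus strand), moved the other way. It had 159, 134 and 138 CPM in treated PEO1 libraries, against 236, 200.1 and 199.7 CPM in DMSO libraries. Every treated library lay below every DMSO library, and the level fell to 0.677 of that in DMSO (log2 fold change −0.56 ± 0.12, edgeR, adjusted p = 0.00292).

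The last of the targets, AMOTL2, encodes an angiomotin-like scaffold that binds YAP at cell junctions (chromosome 3, 134355345 to 134375417, minus strand). It had 176, 142 and 164 CPM in treated PEO1 libraries and 208, 158 and 178 CPM in DMSO libraries, and these ranges overlap. The log2 difference of −0.17 ± 0.16 did not pass the test (edgeR, adjusted p = 0.446, 95% interval −0.52 to 0.17).

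The factors themselves moved less in PEO1. YAP1 (chromosome 11, 102110461 to 102233423, plus strand) had 162, 186 and 178 CPM in treated libraries and 179, 197 and 201 CPM in DMSO libraries, with a log2 difference of −0.13 ± 0.13 (edgeR, adjusted p = 0.467, 95% interval −0.41 to 0.14). WWTR1 (chromosome 3, 149517235 to 149703273, minus strand) had 70.8, 76.0 and 70.1 CPM in treated libraries and 64.2, 65.0 and 63.1 CPM in DMSO libraries. These WWTR1 values do not overlap, yet the difference of 0.17 ± 0.11 did not pass the test across all genes (edgeR, adjusted p = 0.265, interval −0.07 to 0.41). TEAD1 (chromosome 11, 12674422 to 12944737, plus strand) had 155, 200.2 and 158 CPM in treated libraries and 164, 179 and 209 CPM in DMSO libraries (−0.10 ± 0.18, edgeR, adjusted p = 0.707). TEAD4 (chromosome 12, 2959312 to 3040676, plus strand) had 89.6, 69.5 and 72.8 CPM in treated libraries and 134, 93.5 and 89.5 CPM in DMSO libraries. The treated TEAD4 range reached just into the DMSO range, and the difference was −0.45 ± 0.21 (edgeR, adjusted p = 0.130, interval −0.91 to 0.01). Within each letter treated TEAD4 was lower, and a fit with the letter as a block called it (edgeR, adjusted p = 0.000428). TEAD4 was highest in library A and YAP1 and TEAD1 were lowest in library A in each of the 4 groups.

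In COV362 the same question gave no call among the 10 genes in edgeR, none with an unadjusted p under 0.05, and none by DESeq2 or limma-voom. The background there was low: 0.828% of all tested genes were called, 0.607% higher and 0.221% lower. The median log2 fold change of the members was −0.06, beside −0.01 over all tested genes. Treated and DMSO libraries overlapped for each of the 10 genes. Neither overlap nor unadjusted p-values were counted over all tested genes, so they do not set the members apart. ANKRD1 had 582, 754 and 675 CPM in treated COV362 libraries A, B and C and 717, 802 and 806 CPM in DMSO libraries (−0.21 ± 0.13, edgeR, adjusted p = 0.551, 95% interval −0.48 to 0.06). Each COV362 library was above the highest PEO1 library. CTGF had 63.4, 60.5 and 53.4 CPM in treated and 59.3, 46.5 and 61.7 CPM in DMSO libraries, a difference of 0.08 ± 0.17 with an interval of −0.29 to 0.45 (edgeR, adjusted p = 0.914). For CYR61 the values were 413, 409 and 434 CPM in treated and 439, 317 and 447 CPM in DMSO libraries, a difference of 0.06 ± 0.16 with an interval of −0.28 to 0.40 (edgeR, adjusted p = 0.935). Intervals for AMOTL2 (−0.37 to 0.32), LATS2 (−0.31 to 0.36) and AXL (−0.35 to 0.15) likewise spanned 0. LATS2 averaged 31.2 ± 3.12 CPM in treated and 30.6 ± 4.41 CPM in DMSO libraries, AMOTL2 221 ± 22.6 and 225 ± 47.5 CPM, and AXL 376 ± 12.8 and 403 ± 21.1 CPM.

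YAP1 and the TEAD genes were nearer to a call in COV362. In COV362, libraries that share a letter deviated together, so the drug comparison was also fitted with the letter as a block. YAP1 had 105, 134 and 121 CPM in treated libraries and 127, 162 and 147 CPM in DMSO libraries A, B and C, lower within each letter (−0.27 ± 0.13, edgeR, adjusted p = 0.406, or 0.0399 with the block). TEAD1 had 63.6, 89.8 and 76.7 CPM in treated and 80.5, 128 and 93.8 CPM in DMSO libraries, also lower within each letter (−0.39 ± 0.18, edgeR, adjusted p = 0.400, or 0.0264 with the block). TEAD4 had 155, 104 and 107 CPM in treated and 123, 77.0 and 89.4 CPM in DMSO libraries, higher within each letter (0.34 ± 0.21, edgeR, adjusted p = 0.562, or 0.0193 with the block). With the block, then, TEAD4 was higher and YAP1 and TEAD1 were lower in treated COV362 cells, 3 of 10 members beside 9.65% of all tested genes. WWTR1 averaged 84.0 ± 4.61 CPM in treated and 92.9 ± 8.21 CPM in DMSO libraries and was called in neither fit (adjusted p = 0.666, or 0.344 with the block).

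**Figure D3:**
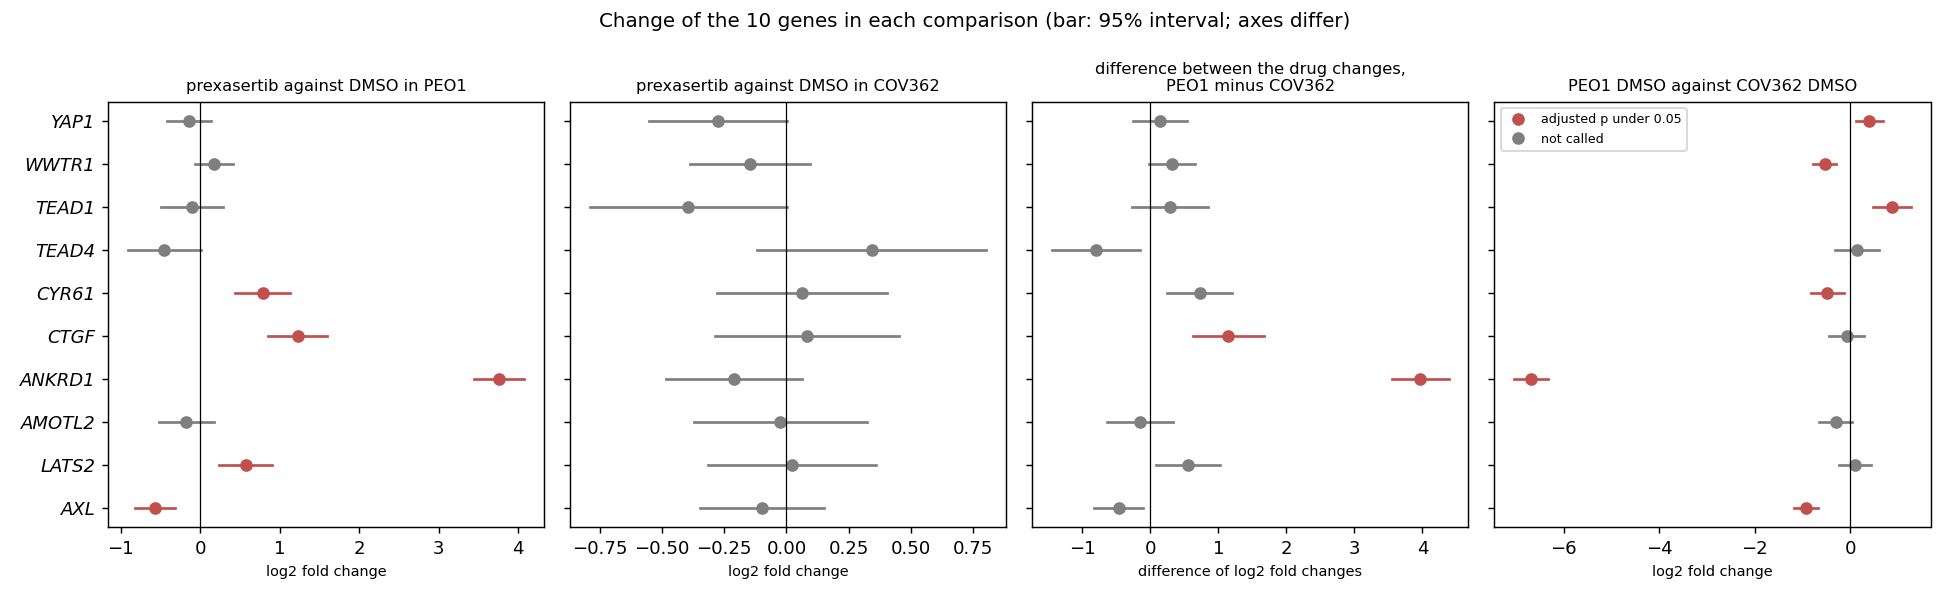
Log2 fold changes of the 10 genes in the drug comparisons in PEO1 and COV362, in the difference between them, and in PEO1 DMSO against COV362 DMSO (x axes, which differ in range). Points are edgeR estimates, bars are 95% intervals, and red marks an adjusted p under 0.05. In PEO1 5 genes are red, in COV362 none, in the difference 2 and between the lines 6.

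Whether the drug changes differed between the lines was tested directly, as the change in PEO1 minus the change in COV362. That difference passed for ANKRD1 and CTGF, 2 of 10 members, beside 6.10% of all tested genes (3.14% higher in PEO1 and 2.97% lower). ANKRD1 rose by 3.76 in PEO1 and differed by −0.21 in COV362, a difference of 3.97 ± 0.19 on the log2 scale (edgeR, adjusted p = 1.35e-07). CTGF changed by 1.23 in PEO1 and 0.08 in COV362, a difference of 1.15 ± 0.24 (edgeR, adjusted p = 0.0178). The CTGF call was lost without treated COV362 library C (adjusted p = 0.0528), treated PEO1 library A (0.0556), PEO1 DMSO library B (0.0590) or PEO1 DMSO library C (0.0608), with differences of 0.92 to 1.26 over the alternatives run. CYR61 (0.72 ± 0.23, edgeR, adjusted p = 0.0708), AXL (−0.47 ± 0.16, 0.103), TEAD4 (−0.79 ± 0.30, 0.126) and LATS2 (0.55 ± 0.22, 0.140) did not pass in this fit, although CYR61, LATS2 and AXL were called in PEO1 and not in COV362. For these 4 genes the answer depended on the fit. With the letter as a block in all 4 groups, each difference was called (edgeR, adjusted p = 0.000772 for CYR61, 0.00612 for AXL, 0.000164 for TEAD4 and 0.0152 for LATS2), beside 29.1% of all tested genes. DESeq2 without the block called CYR61 (adjusted p = 0.0404) and AXL (0.0181). WWTR1, TEAD1, YAP1 and AMOTL2 did not pass either, with adjusted p-values of 0.224 to 0.727.

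Without drug, the lines differed most in ANKRD1. PEO1 with DMSO had 8.03, 8.09 and 6.54 CPM and COV362 with DMSO had 717, 802 and 806 CPM, 103-fold lower in PEO1 (log2 fold change −6.68 ± 0.17, edgeR, adjusted p = 5.49e-12). This comparison and the drug comparison in PEO1 share the PEO1 DMSO libraries. Treated PEO1 cells, with 102 ± 6.37 CPM of ANKRD1, remained below every COV362 library. Of the 10 genes 6 were called between the lines, in a comparison where 57.7% of all tested genes were called: 2 were higher in PEO1, against 29.1% of all genes, and 4 lower, against 28.6%. The share called among the members was close to that background.

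AXL was lower in PEO1, with 236, 200.1 and 199.7 CPM against 399, 384 and 425 CPM in COV362 (−0.92 ± 0.12, edgeR, adjusted p = 1.32e-05). WWTR1 was also lower in PEO1, with 64.2, 65.0 and 63.1 CPM against 83.6, 99.2 and 95.8 CPM in COV362 (−0.54 ± 0.11, edgeR, adjusted p = 0.00101). The other coactivator and its partner went the other way. TEAD1 was higher in PEO1, with 164, 179 and 209 CPM against 80.5, 128 and 93.8 CPM in COV362 (0.87 ± 0.18, edgeR, adjusted p = 0.00112). YAP1 was higher in PEO1 too, with 179, 197 and 201 CPM against 127, 162 and 147 CPM in COV362 (0.40 ± 0.13, edgeR, adjusted p = 0.0161). CYR61 was lower in PEO1, with 314, 269 and 278 CPM against 439, 317 and 447 CPM in COV362 (−0.48 ± 0.16, edgeR, adjusted p = 0.0184). The YAP1 call was lost without COV362 library A (adjusted p = 0.0645), PEO1 library B (0.0588) or PEO1 library C (0.0614). The CYR61 call was lost without COV362 library A (0.0543), COV362 library C (0.0809), PEO1 library B (0.0673) or PEO1 library C (0.0565). CTGF, LATS2 and TEAD4 were not called between the lines (adjusted p = 0.743, 0.592 and 0.612), and their ranges overlapped. AMOTL2 differed by −0.31 ± 0.16 (edgeR, adjusted p = 0.120), which was called when the letter was kept as a block (0.00358, beside 68.4% of all tested genes called in that fit).

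Other genes of the pathway were read from 7 lists, of which the largest were Hippo regulators, partners of YAP and TEAD, other genes of a published YAP/TAZ target signature, and targets of SRF and its coactivators MRTF, which answer to the actin skeleton. In PEO1 more of the signature genes fell than rose, unlike ANKRD1, CTGF and CYR61. Of the 16 tested 2 rose and 6 fell under prexasertib, with a median log2 fold change of −0.45. Of 13 tested SRF/MRTF targets none rose and 6 fell (ACTB, ACTG1, CNN2, TPM1, FHL2 and FLNA), with a median of −0.58. Among these, CNN2 was near the detection floor, at 0.247 CPM in treated PEO1 and 0.944 CPM in PEO1 with DMSO. Of 18 Hippo regulators 3 rose and 1 fell (median 0.24), and of 11 partners none rose and 3 fell (median −0.04). The Hippo regulators that rose include NF2, near the detection floor at 0.943 CPM in treated PEO1 and 0.055 CPM in PEO1 with DMSO. The AXL family and its ligands had 2 of 4 tested genes lower, and of 2 tested relatives of ANKRD1 1 was lower. NOV, the single tested CCN relative, was not called. These counts stand beside 14.7% of all genes higher and 14.6% lower. The counts depended on the fit. With the letter as a block, the PEO1 genes higher and lower were 7 and 4 among Hippo regulators and 1 and 4 among partners. They were 2 and 9 among signature genes and 1 and 7 among SRF/MRTF targets. NOV was called higher and 3 of the AXL family and ligands lower. That fit called 6926 of 14498 tested genes.

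GADD45A, a stress-induced growth arrest gene that is also a p53 target, led the rises of the signature. It averaged 332 ± 55.4 CPM in treated PEO1 cells and 53.9 ± 2.94 CPM in PEO1 with DMSO (log2 fold change 2.62 ± 0.17, edgeR, adjusted p = 3.64e-07). TGFB2, a growth factor ligand, rose at a low level, to 5.83 ± 1.91 CPM in treated cells, against 1.74 ± 0.722 CPM in DMSO (1.73 ± 0.43, edgeR, adjusted p = 0.00896). The signature genes that fell in PEO1 were IGFBP3, CCDC80, F3, ARHGEF17, MYOF and NT5E, with log2 changes of −1.32 to −0.58. IGFBP3, a secreted binder of insulin-like growth factors, averaged 857 ± 87.2 CPM in treated PEO1 cells and 2145 ± 241 CPM in DMSO. The tropomyosin gene TPM1 averaged 266 ± 10.1 CPM in treated cells and 537 ± 27.5 CPM in DMSO, a fall of −1.02 ± 0.10 (edgeR, adjusted p = 2.13e-05). ACTB, the cytoplasmic actin, averaged 1846 ± 439 CPM in treated PEO1 cells and 3056 ± 550.2 CPM in DMSO (−0.73 ± 0.24, edgeR, adjusted p = 0.0323). The ACTB call was lost without treated PEO1 library B (adjusted p = 0.0991), treated library C (0.0623) or DMSO library A (0.0937), and reads of ACTB and ACTG1 may be shared with near-identical copies.

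**Figure D4:**
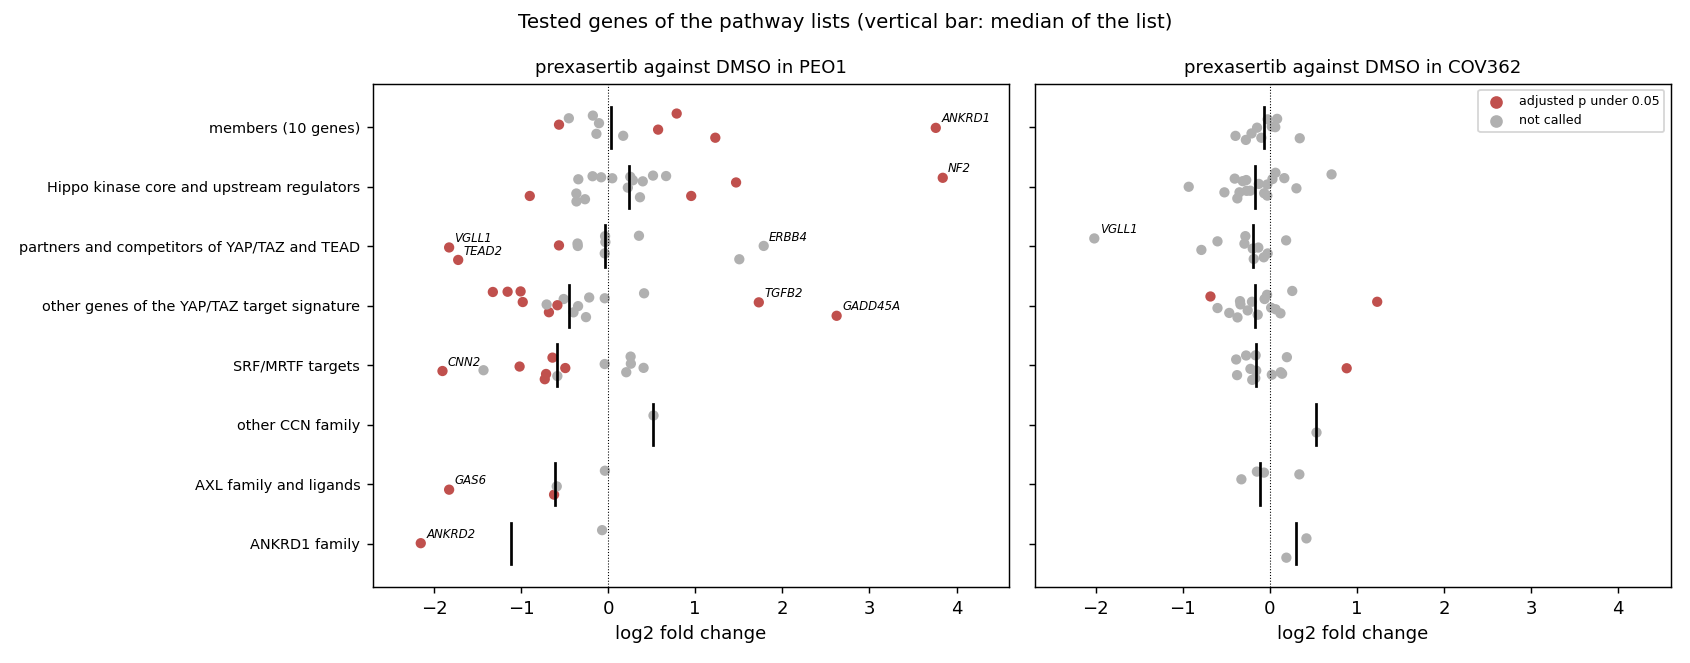
Log2 fold changes (x axis) of every tested gene of the 10 members and 7 pathway lists (rows) under prexasertib in PEO1 (left) and COV362 (right). Red marks an adjusted p under 0.05, and vertical bars are list medians. In PEO1 the members' median is 0.03, that of the SRF/MRTF targets is −0.58 and that of the other signature genes is −0.45.

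Upstream of YAP in PEO1, RASSF1, a scaffold that stimulates the Hippo kinases, had 45.7, 33.0 and 37.1 CPM in treated libraries and 14.2, 14.9 and 12.7 CPM in DMSO libraries (1.47 ± 0.21, edgeR, adjusted p = 0.000269). LATS1, the paralog of LATS2, had 63.1, 91.5 and 72.8 CPM in treated libraries and 33.7, 37.8 and 45.8 CPM in DMSO libraries (0.95 ± 0.21, edgeR, adjusted p = 0.00397). Both LATS kinase genes were thus higher in treated PEO1 cells. WWC1, which encodes the LATS activator KIBRA, averaged 130.3 ± 6.23 CPM in treated PEO1 cells and 243 ± 11.2 CPM in DMSO (−0.90, edgeR, adjusted p = 0.00026). Among partners, VGLL1, a cofactor that binds TEAD in place of YAP, fell in PEO1 (−1.82 ± 0.17, edgeR, adjusted p = 2.17e-05). TEAD2 fell to 3.38 ± 0.758 CPM in treated PEO1 cells, against 11.2 ± 1.09 CPM in DMSO (−1.72 ± 0.22, edgeR, adjusted p = 9.27e-05), and TEAD3 averaged 20.4 ± 1.27 and 30.2 ± 0.942 CPM (−0.56, edgeR, adjusted p = 0.0129). TEAD2 and TEAD3 were therefore called lower in treated PEO1 cells and TEAD1 and TEAD4 were not. TEAD4 was nonetheless called lower there when only the 6 PEO1 libraries were fitted (−0.45, edgeR, adjusted p = 0.0427). It was also called when all A libraries were left out (−0.37, edgeR, adjusted p = 0.0304). The fit with the letter as a block called it too (−0.44, edgeR, adjusted p = 0.000428).

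AXL and its ligand fell together in PEO1. GAS6, which encodes that ligand, had 38.3, 41.1 and 45.4 CPM in treated libraries and 158, 128 and 156 CPM in DMSO libraries (−1.82 ± 0.14, edgeR, adjusted p = 2.71e-06). TYRO3, a receptor of the same family, averaged 17.9 ± 1.81 CPM in treated cells and 27.6 ± 2.01 CPM in DMSO (−0.62 ± 0.15, edgeR, adjusted p = 0.00676). The muscle ankyrin repeat gene ANKRD2 moved opposite to ANKRD1, with 2.36 ± 0.216 CPM in treated PEO1 cells and 10.5 ± 0.206 CPM in DMSO (−2.15 ± 0.51, edgeR, adjusted p = 0.00673). Of 13 serous carcinoma markers, 5 were called lower and none higher in the same comparison, beside 14.6% of all tested genes lower. Their log2 changes ran from −1.10 to 3.43 with a median of −0.57, and their part in the falls of these lists was not tested. The value of 3.43 is that of FOLR1, which was at the detection floor. It had 2, 2 and 0 counts in treated PEO1 libraries and 0 in each PEO1 DMSO library.

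In COV362 few list genes were called under prexasertib, beside 0.828% of all tested genes. GADD45A rose there as well, to 112 ± 2.65 CPM in treated cells, against 47.7 ± 10.3 CPM in DMSO (1.23 ± 0.16, edgeR, adjusted p = 0.00318), and its change was larger in PEO1 (difference 1.39 ± 0.23, edgeR, adjusted p = 0.00498). The GADD45A call in COV362 was lost when only the 6 COV362 libraries were fitted (adjusted p = 0.0867). CCDC80, a secreted matrix-binding protein, averaged 42.0 ± 5.51 CPM in treated COV362 cells and 67.3 ± 6.21 CPM in DMSO (−0.68 ± 0.13, edgeR, adjusted p = 0.0242). Of the 12 fits that each left out 1 library, the CCDC80 call held in those without treated COV362 library B, COV362 DMSO library A or PEO1 DMSO library C and was lost in the others (adjusted p of 0.0508 to 0.128), as it was in the fit of 6 libraries (0.287). FHL2, a LIM domain cofactor and SRF target, averaged 49.8 ± 2.96 CPM in treated COV362 cells and 27.1 ± 3.92 CPM in DMSO (0.88 ± 0.14, edgeR, adjusted p = 0.00739), but not without treated library C (0.0525) or in the fit of 6 libraries (0.178). In PEO1 FHL2 fell (−0.49 ± 0.13, edgeR, adjusted p = 0.0124), and the difference of −1.37 ± 0.19 passed (0.00205). No Hippo regulator and no partner was called in COV362 by edgeR, where 4 of 18 and 2 of 11 had an unadjusted p under 0.05. The share of all tested genes under that unadjusted limit was not counted. DESeq2 called 1 Hippo regulator there and no partner, and limma-voom called none of either. With the letter as a block, 4 Hippo regulators (RASSF1 higher, WWC1, WWC2 and FAT4 lower), 2 partners (AMOT and PTPN14, both lower), 5 signature genes (1 higher, 4 lower), 3 SRF/MRTF targets (1 higher, 2 lower) and NOV (higher) were called in COV362, beside 9.65% of all tested genes called in that fit. None of the AXL family or ANKRD1 relatives was called there by edgeR, DESeq2 or limma-voom, and none had an unadjusted p under 0.05.

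The lines themselves differed strongly in 2 regulators of the pathway. NF2 (chromosome 22, 29603556 to 29698600, plus strand) had 21, 6 and 21 counts in treated PEO1 libraries and 0, 0 and 3 counts in PEO1 with DMSO, against 1481, 1615 and 1826 counts in treated COV362 and 1108, 1801 and 1705 in COV362 with DMSO. PEO1 with DMSO therefore held 3 NF2 counts over the group against 4614 in COV362 with DMSO. Scaled to library size, COV362 was 1907 times higher, with an exact 95% interval of 652 to 9253 that covers counting error only. NF2 rose in PEO1 under prexasertib (edgeR, adjusted p = 0.002), with 48 counts in treated libraries against 3 in DMSO. That is a ratio of 16.0 with a counting interval of 5.17 to 80.5. It stayed near the detection floor, averaging 0.943 ± 0.532 CPM in treated PEO1 cells. Genes with any count numbered 16418 to 17700 in treated PEO1 libraries and 15751 to 16308 in PEO1 DMSO libraries. A general gain of low counts was not tested. VGLL1 was the reverse case, with 44.2, 40.3 and 44.7 CPM in treated PEO1 libraries and 175, 155 and 128 CPM in PEO1 with DMSO, but 0 counts in each treated COV362 library and 0, 0 and 1 counts in COV362 with DMSO. No other gene in the table shares exon bases with NF2 or with any of the 10 members.

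**Figure D5:**
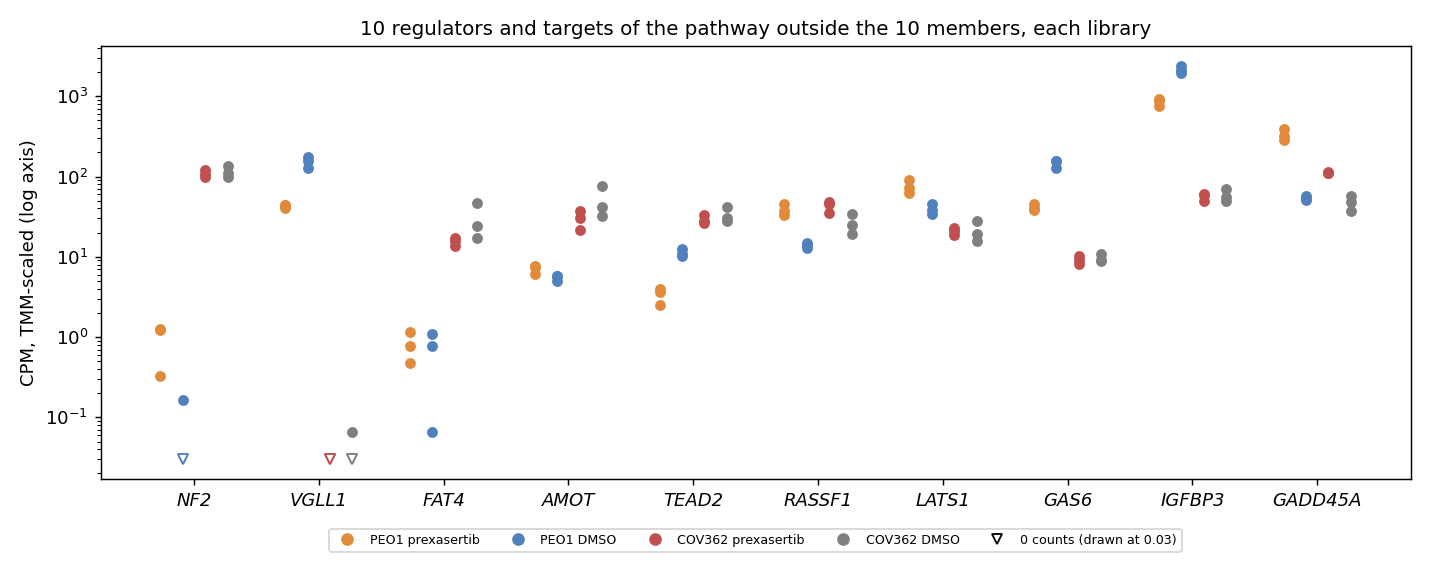
Scaled CPM (log axis) of 10 regulators and targets outside the 10 members in each of 12 libraries, by gene (x axis) and group (colour). Open triangles at the foot mark libraries with 0 counts. NF2 is near 0 in both PEO1 groups and between 98.7 and 134 CPM in COV362, VGLL1 is near 0 in COV362, and GADD45A is higher with prexasertib in both lines.

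Over the lists, 8 Hippo regulators were higher and 6 lower in PEO1 with DMSO than in COV362 with DMSO, of 18 tested. Partners were 3 higher and 5 lower of 11, signature genes 5 and 5 of 16, and SRF/MRTF targets 4 and 6 of 13. Over all tested genes, 29.1% were higher and 28.6% lower in PEO1. With the letter as a block, the genes higher and lower were 10 and 6 among Hippo regulators, 5 and 5 among partners, 8 and 5 among signature genes, and 4 and 8 among SRF/MRTF targets, in a fit that called 68.4% of all tested genes. FAT4, an atypical cadherin upstream of Hippo, was lower in PEO1 (−5.46 ± 0.53, edgeR, adjusted p = 9.59e-07), and so was AMOT, the YAP-binding angiomotin (−3.20 ± 0.30, edgeR, adjusted p = 7.29e-07). The contractile genes CNN2 (−7.76 ± 0.37) and MYL9 (−6.86 ± 0.38) were nearly silent in PEO1, at 0.944 and 0.317 CPM, against 209 and 38.8 CPM in COV362. IGFBP3 (5.20 ± 0.18), GAS6 (3.93 ± 0.16), ANKRD2 (3.48 ± 0.58), PROS1, another ligand of the AXL family (1.37 ± 0.25), and NOV (1.19 ± 0.28) were higher in PEO1, whereas TGFB2 (−3.22 ± 0.43) was lower. All of these passed in edgeR, with adjusted p-values from 6.17e-11 to 0.00256.

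Genes with the most similar pattern were sought for the 5 members called in a drug comparison, by the root mean square difference of the 4 group means of log2 CPM, each gene centred on its own mean, over 13107 genes. CYR61 was closest to CRY2 (0.0188) and NSUN3 (0.0233), CTGF to YOD1 (0.0308) and ZNF93 (0.0314), LATS2 to SNAP29 (0.0116) and STX18-AS1 (0.0117), and AXL to SPAG7 (0.0157) and ATF6B (0.0211). ANKRD1 had no such close match. Its nearest genes were NFATC2 at 0.440 and HSPB8 at 0.482, both high in COV362, lower in treated PEO1 and lowest in PEO1 with DMSO. NFATC2 averaged 6.57 CPM in treated PEO1, 0.324 CPM in PEO1 with DMSO, 28.8 CPM in treated COV362 and 23.2 CPM in COV362 with DMSO. With 4 group means a close match is easily found by a gene with moderate changes, so these values are a description only.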

How the data were processed

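RNA sequencing covered 12 libraries in 4 groups of 3. Per the labels' protocols, column-purified RNA went into the TruSeq RNA Library Prep Kit v2, a polyA-selecting kit that keeps no strand. The submitters' processing notes name STAR, featureCounts 1.4.6, Subread and hg38, without role or order. The authors deposited raw gene counts, not normalized, beside exon coordinates and exon lengths (per the file headers). How reads with several matches were handled is not given in the sources used here.

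Genes were filtered with filterByExpr (minimum count 10, minimum total 15), which left 14498, scaled by TMM, and tested with the quasi-likelihood F-test of edgeR 4.0.16 under R 4.3.3 on 1 fit of 4 group means (8 residual degrees of freedom). Adjusted p-values are Benjamini-Hochberg over all tested genes, two-sided, with a call under 0.05. The comparisons numbered 4. CPM and RPKM were computed here from the counts. Alternatives were DESeq2 1.42.0, limma 3.58.1 (voom), median-of-ratios size factors, other filters, a fit of 6 libraries, the letter as a block (6 residual degrees of freedom), each library left out, and, chosen after seeing the data, all A libraries left out.

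The members, lists and alternatives were chosen with earlier results of these data known. Of each list, the genes named by rule were the 2 with the largest change among called genes averaging 1 CPM or more in a comparison, and for each member called under the drug the 2 genes of most similar pattern. NF2 in the PEO1 drug comparison, WWC1, TEAD3 and the other called list genes named beside their counts were chosen after their values were seen.

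Letters recur across groups. Deviations from group means of same-letter libraries correlated at 0.410, 0.423 and 0.133 (A, B and C) between the COV362 groups and at 0.350, 0.164 and 0.148 between the DMSO groups of the lines, and the block is given beside those results where it changes a call. Between the PEO1 groups the values were 0.302, 0.171 and 0.0813. There, as between the DMSO groups of the lines, 4 of 6 libraries correlated best with their own letter. The letter may thus pair the PEO1 libraries as well, and the main PEO1 fit leaves that out. The edgeR script was tested on simulated data before use.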

Additional observations from a re-analysis of the deposited data

Results flagged for a closer look

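For 2 of the 10 genes the drug change differed between the lines by a direct test. The ANKRD1 change was 3.97 higher on the log2 scale in PEO1 than in COV362 (edgeR, adjusted p = 1.35e-07), with all 3 treated PEO1 libraries above all 3 PEO1 DMSO libraries and overlapping groups in COV362. The CTGF change was 1.15 higher in PEO1 (edgeR, adjusted p = 0.0178), with no overlap in PEO1 and overlap in COV362. Overlap was not counted over all tested genes, so it does not set these genes apart. Of all tested genes, 29.3% were called in PEO1 and 0.828% in COV362. For ANKRD1 the starting levels differed as well, at 7.55 ± 0.875 CPM in PEO1 with DMSO and 775 ± 49.95 CPM in COV362 with DMSO, whereas for CTGF they were 53.0 ± 8.69 and 55.8 ± 8.18 CPM.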

How the results depend on the processing

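The alternatives changed the counts of called genes more than the members' estimates. In COV362, where no member and 120 of all genes were called, DESeq2 called 533 genes, the fit of the 6 COV362 libraries 10, the replicate block 1399 with 3 members, and the fit without the A libraries 330. Leaving out 1 library at a time gave 27 (without treated library C) to 128 genes. In PEO1 the block called 6926 genes against 4249, and TEAD4 joined the members there (adjusted p = 0.000428), as it did with 6 libraries (0.0427) and without the A libraries (0.0304). The main PEO1 calls leave the letters out. Yet 4 of 6 PEO1 libraries correlated best with their own letter, as between the DMSO groups of the lines. For the difference between the lines, DESeq2 called 1966 genes with 4 members (CYR61 and AXL added), and the block 4219 with 6 members (TEAD4 and LATS2 added as well), against 885 with 2. Leaving out 1 library gave 328 (without PEO1 DMSO library A) to 1756 genes (without treated COV362 library B) and 1 to 3 members. Between the lines under DMSO each count stayed within 1.5 times its value, from 7513 to 9910 genes. The block changed no other call of a member than those given here and above. The cause was not tested in any of these cases.

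CYR61, CTGF, ANKRD1 and AXL in PEO1 were called in all 20 alternatives, as were WWTR1, TEAD1, ANKRD1 and AXL between the lines, and the ANKRD1 difference in all 19. Signs turned for differences that were called in no fit. In the COV362 drug comparison leaving out 1 library gave AMOTL2 values of −0.15 to 0.15, LATS2 values of −0.068 to 0.14, CYR61 values of −0.082 to 0.15 and CTGF values of −0.034 to 0.16, and without the A libraries AMOTL2 was 0.070 and LATS2 −0.011. Between the lines leaving out 1 library gave TEAD4 values of −0.074 to 0.34, CTGF values of −0.21 to 0.019 and LATS2 values of −0.0048 to 0.22. With the longer TEAD motif the share of promoters fell to 3.46%, against 14.0%, by its construction. With 3 libraries a group, differences in COV362 may be missed. The intervals given above bound them for ANKRD1, CTGF, CYR61, AMOTL2, LATS2 and AXL only. Without the block, the COV362 intervals were −0.55 to 0.0044 for YAP1 and −0.39 to 0.094 for WWTR1. They were −0.79 to 0.0026 for TEAD1 and −0.12 to 0.80 for TEAD4, so larger differences may be missed there. YAP1, TEAD1 and TEAD4 were called with the block.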

Other observations

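NIPSNAP1, THOC5 and ZMAT5, which lie near NF2 on chromosome 22, each had 139 counts or more in every PEO1 library, whereas NF2 had at most 21. CABP7, the next gene after NF2, had 9 or fewer in each library of both lines. NEFH, which lies before THOC5, was also low in both lines. It had 18, 10 and 12 counts in treated PEO1 libraries and 3, 0 and 4 in PEO1 with DMSO. NIPSNAP1, which ends before NF2 begins, had 1256, 1186 and 1157 counts in treated PEO1 libraries and 1746, 2077 and 1808 in PEO1 with DMSO. THOC5, before NIPSNAP1, had 1460, 1628 and 1472 counts in treated libraries and 2267, 2588 and 2374 with DMSO. On the other side, ZMAT5 had 222, 186 and 196 counts in treated libraries and 140, 139 and 144 with DMSO. The low NF2 counts of PEO1 were thus not shared by NIPSNAP1, THOC5 or ZMAT5.

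Among markers of other cell types, the endothelial cadherin gene CDH5 averaged 1.58 CPM in treated PEO1 cells and 6.56 CPM in PEO1 with DMSO, against 45.2 CPM in treated COV362 and 73.9 CPM in COV362 with DMSO. Mesothelial markers summed to 42.4 to 57.9 CPM in treated PEO1 cells and 100.2 to 122 CPM in PEO1 with DMSO, and to 23.7 to 30.9 CPM in treated COV362 and 34.3 to 37.0 CPM in COV362 with DMSO. Immune markers summed to 32.4 to 39.3 CPM in treated PEO1, 37.7 to 42.6 CPM in PEO1 with DMSO, 49.96 to 60.1 CPM in treated COV362 and 31.0 to 42.2 CPM in COV362 with DMSO, nearly all from CD68.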
